A study of Mus musculus with 2 samples.

Results

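The genes described here are 9 genes of the B cell receptor and of B cell identity, taken as every probe set whose annotation names 1 of them: Cd79a, Cd79b, Cd22, Ms4a1, Pou2af1, Blk, Cr2, Spib and Pax5. All 9 were on the array, with 11 probe sets of the 22626 that are not controls, and they are 9 of 12393 genes named by a single-symbol probe set. They were read in 2 pools of distal colon RNA. The wild-type pool came from 4 mice of the FVB inbred strain (the design text writes TVB). The IL-9 transgenic pool came from 4 mice carrying an interleukin-9 (IL-9) transgene; this type 2 cytokine stimulates mast cells and lymphocytes. The transgenic sample is titled Tg5. Both groups were bred free of specific pathogens. The promoter of the transgene, and the age and sex of the mice, are not given in the sources used here. Each pool was hybridised to 1 Affymetrix array, so the spread between mice was not measured, no test was run, and all differences below are between these 2 pools.

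B cells recognise antigen with a membrane immunoglobulin that cannot signal alone. The chains CD79A and CD79B hold it at the surface and carry the tyrosine motifs that kinases of the Src family, among them BLK, phosphorylate. CD22 restrains this signal, CR2 (CD21) amplifies it when antigen carries complement, and a small set of transcription regulators, with PAX5 at its head, keeps the cell a B cell. In the gut wall, B cells lie in lymphoid follicles, while most antibody is made by plasma cells, which have switched off much of this programme.

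Intensities are MAS5 signals on a linear scale, as deposited. Values below 19.8, the 40th percentile of all probe sets over both arrays, are treated as no higher than that floor. A gene counts as measured if its brightest probe set passed the floor on at least 1 array, and as higher or lower at a ratio of at least 2-fold, a log2 ratio of 1. Over all probe sets the medians were close, 34.0 for the wild-type pool and 34.2 for the transgenic one. Of 20 distal colon epithelium genes, 19 were on the array and all 19 were measured. None of them reached 2-fold in either direction and their median log2 ratio was 0.003. Hoxb13, a gene of the hindmost gut, read 1255 in wild type and 1237 in transgenic colon. These genes speak for colon epithelium only. Gp2, which pancreatic acinar cells make in quantity, read 599 and 15.6, and the lowest log2 ratio over all genes was −7.47. How far other tissue differs between the pools was not tested.

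Of the 9 genes, 4 were at least 2-fold higher in transgenic colon (Cd79a, Cd22, Pou2af1 and Ms4a1), and none was 2-fold lower. Another 3 were measured with positive ratios that did not reach 2-fold (Cd79b, Spib and Cr2, whose ratio is a bound). The remaining genes, Blk and Pax5, stayed under the floor on both arrays. As deposited, 8 of the 9 genes and 10 of the 11 probe sets read higher in transgenic colon, the exception being Pax5. In bulk tissue, more B cells and more RNA of these genes per cell cannot be told apart.

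The signalling chains of the receptor both read higher in transgenic colon, by different amounts. Cd79a (probe set 1418830_at), which encodes the Ig-alpha chain, read 20.7 in the wild-type pool and 78.5 in the transgenic pool, a 3.79-fold ratio. The wild-type value lies just above the floor. Cd79b (1417640_at), which encodes the Ig-beta chain that pairs with it, read 35.6 and 65.2. That ratio of 1.83-fold, a log2 ratio of 0.87, fell short of 2-fold. The proteins act as a dimer, but the log2 ratio of Cd79a was 1.92. Each chain had 1 probe set, so neither value could be set against another probe set.

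**Figure D1:**
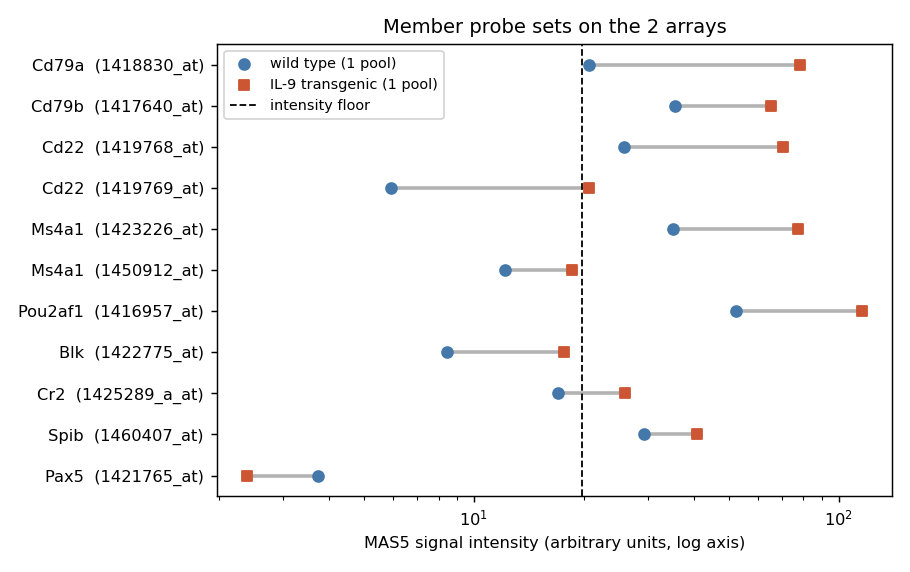
MAS5 signal intensity (log axis) of each of the 11 probe sets in the wild-type pool (circles) and the IL-9 transgenic pool (squares), 1 array each, with the floor of 19.8 as a dashed line. The transgenic value lies to the right in 10 of 11 probe sets; the exception, Pax5, and the probe sets of Blk and the dimmer one of Ms4a1 lie below the floor on both arrays.

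The surface proteins that set the receptor's threshold and mark mature B cells followed the same direction. Cd22 (1419768_at), a sialic acid-binding inhibitor of receptor signalling, read 25.8 in wild type and 70.2 in transgenic colon, 2.72-fold higher. Its other probe set (1419769_at) was dimmer, at 5.91 and 20.7. Since the wild-type value lay under the floor and the transgenic value just above it, this probe set gives only a bound of at least 1.05-fold. The deposited values of both Cd22 probe sets are higher in transgenic colon, but only the brighter gives a ratio measured on both arrays.

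Ms4a1 encodes CD20, a membrane protein of B cells that plasma cells lack. Its brighter probe set (1423226_at) read 35.2 in wild type and 77.6 in transgenic colon, 2.21-fold higher. The dimmer one (1450912_at) read 12.2 and 18.6, under the floor on both arrays, and gives no ratio. Cr2 (1425289_a_at), the complement receptor of B cells and of follicular dendritic cells, read 17.0 and 25.9. The wild-type value was under the floor, so the ratio is at least 1.31-fold. The name of this probe set marks one that can bind several transcripts of a gene; the mouse Cr2 gene also encodes CR1 (CD35).

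Among the transcription regulators, Pou2af1 (1416957_at) had the clearest reading, with both values well above the floor. It encodes OCA-B, the B cell coactivator that joins octamer-binding factors on DNA and is needed for germinal centres. It read 52.3 in the wild-type pool and 115.6 in the transgenic pool, 2.21-fold higher. Spib (1460407_at), an Ets-family factor of B cells that M cells of the gut and plasmacytoid dendritic cells also use, read 29.3 and 40.9. Its log2 ratio was 0.48, a 1.40-fold ratio below the threshold.

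Pax5 (1421765_at), the factor that commits and holds cells to the B lineage, read 3.74 in wild type and 2.39 in transgenic colon. Both values are far under the floor, so no direction can be read for it. The Src-family kinase gene Blk (1422775_at) read 8.43 and 17.7, again under the floor on both arrays, and its ratio is not counted. Thus the gene whose product heads the B cell programme and the kinase among the members gave no measurement here, whereas both receptor chains did.

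The background against which to read these counts is low. A ratio of 2-fold or more towards transgenic colon was reached by 64 of the 8346 measured genes, which is 0.767%, and by 4 of the 7 measured members, or 57.1%. By probe set, 4 of 8 measured member probe sets reached it, against 0.792% of all 14149 measured. At 1.5-fold the members number 5, against 4.09% of genes. Positive ratios were found in all 7 measured members and in 56.0% of measured genes. Cr2 passed the floor in the transgenic pool alone, so its ratio could only be positive. The sign was free to vary in the 6 members above the floor on both arrays. The members were chosen with earlier results of these arrays known, so the contrast with all genes is a description. They are also dim, and dim genes scatter more. Among the 3463 measured genes in the intensity range of the measured members, a mean of 21.4 to 84.0 over both arrays, 1.07% reached 2-fold in that direction, and the central 95% of their log2 ratios lay between −0.67 and 0.80. Cd79a, Cd22, Pou2af1, Ms4a1 and Cd79b lay above that range, and Spib and Cr2 inside it. Ranked by log2 ratio from the highest among the 8346, Cd79a was 10th, Cd22 19th, Pou2af1 44th, Ms4a1 45th, Cd79b 103rd, Spib 564th and Cr2 926th.

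**Figure D2:**
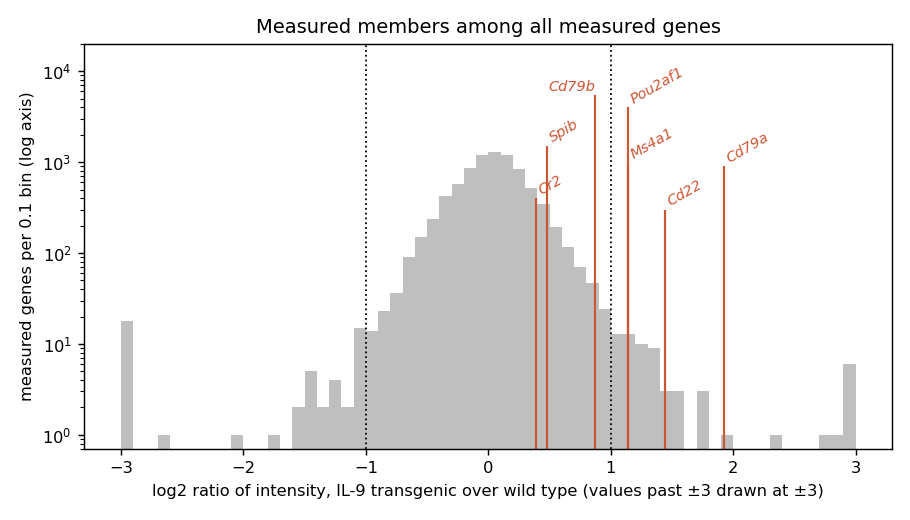
Number of measured genes (log axis, 8346 in all) by log2 ratio of intensity, IL-9 transgenic over wild type, with the 7 measured members as labelled lines whose heights carry no meaning and the 2-fold threshold dotted. Cd79a, Cd22, Pou2af1 and Ms4a1 lie past the threshold on the right, Cd79b just inside it, and Cr2 (a bound) and Spib on the right shoulder.

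The median log2 ratio of the 7 measured members was 1.14, against 0.04 over all measured genes. The one measure of technical error in these data is the scatter between probe sets of the same gene, with a pooled SD of the log2 ratio of 0.28 over the 2847 genes for which 2 or more probe sets gave a ratio free of the floor. The ratios of Cd79a and Cd79b differ by more than that SD, and those of Pou2af1 and Ms4a1 by less. That SD is of single ratios and pools genes of all intensities, so these comparisons do not show whether 2 members differ. It also holds no spread between mice. The counts depend on the floor. With a floor at the 60th percentile, an intensity of 55.1, only Pou2af1 stayed at 2-fold and the median of the 5 measured members was 0.49, and all 5 ratios, that of Pou2af1 included, were bounds. When the probe sets of a gene were averaged, Cd22 fell to a log2 ratio of 0.75 and 3 members reached 2-fold, against 0.73% of all measured genes. The dimmer Cd22 probe set enters that mean as its bound of at least 1.05-fold.

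**Figure D3:**
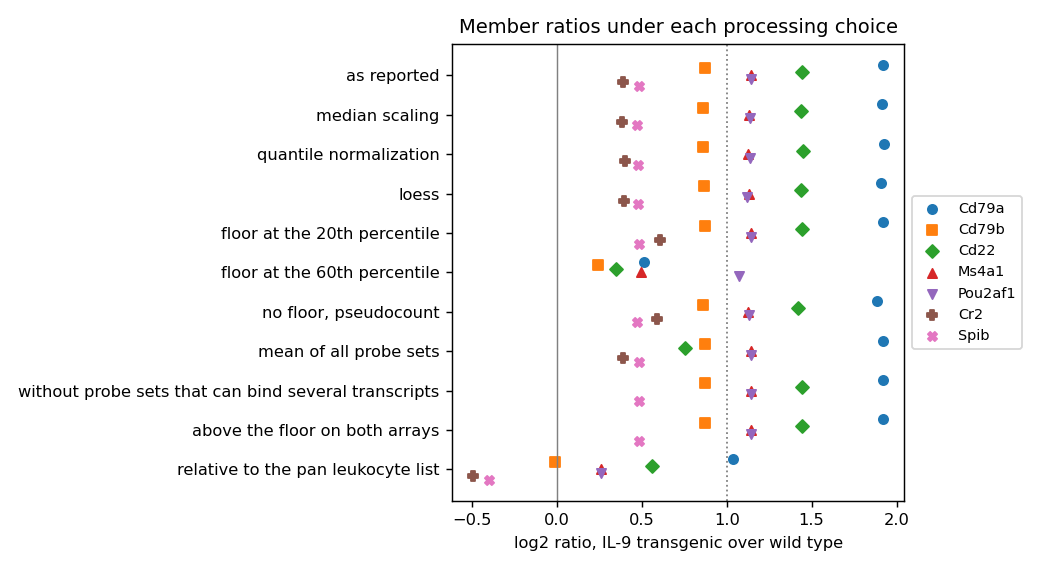
Log2 ratio (IL-9 transgenic over wild type) of each measured member under every processing choice, with the 2-fold threshold dotted; a missing symbol means that the gene was not measured under that choice. Scaling by the median, quantile normalization and loess leave the ratios in place, the floor at the 60th percentile draws all but Pou2af1 to 0.51 or less, and subtracting the median of the pan leukocyte list leaves Cd79a at 1.04 and puts Cd79b at −0.01, Spib at −0.40 and Cr2 at −0.50.

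The DNA before the start of the members that passed 2-fold is shown because B cell regulators, Pou2af1 and Spib among them, act through short motifs at such places. RefSeq promoter windows (GRCm38.p6) were found for 6 of the 9 genes; Cd79b, Ms4a1 and Blk had none. Each printed run is the 250 bases before the gene's start, 5′ to 3′ on the gene's strand, with matches to any of 5 motifs in capitals. Cd79a lies at chr7:24897247-24897496 (+ strand), Cd22 at chr7:30879029-30879278 (− strand) and Pou2af1 at chr9:51213440-51213689 (+ strand).
Cd79a: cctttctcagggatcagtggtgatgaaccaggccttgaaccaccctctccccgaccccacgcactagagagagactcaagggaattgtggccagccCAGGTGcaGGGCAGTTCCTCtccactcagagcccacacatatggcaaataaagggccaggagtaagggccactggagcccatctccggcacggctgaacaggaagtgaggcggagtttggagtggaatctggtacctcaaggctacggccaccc
Cd22: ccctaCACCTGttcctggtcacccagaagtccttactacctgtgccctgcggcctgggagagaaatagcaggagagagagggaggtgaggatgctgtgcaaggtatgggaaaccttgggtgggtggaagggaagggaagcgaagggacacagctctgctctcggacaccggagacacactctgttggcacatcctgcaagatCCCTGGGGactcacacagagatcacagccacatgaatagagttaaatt
Pou2af1: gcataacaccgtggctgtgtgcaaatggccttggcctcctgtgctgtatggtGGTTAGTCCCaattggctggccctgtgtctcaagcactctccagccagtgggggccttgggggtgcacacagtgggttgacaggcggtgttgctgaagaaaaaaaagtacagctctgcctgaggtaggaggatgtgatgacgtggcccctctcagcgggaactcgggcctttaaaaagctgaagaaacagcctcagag

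The motifs were searched on both strands. The octamer ATTTGCAT, to which the partners of OCA-B bind, was in 0 of the 6 windows and in 1.6% of all 32851 RefSeq windows of that length. The PU box GAGGAA, a core of sites for Ets factors such as Spi-B, was in 1 of 6 (Cd79a) and in 23.3% of all windows. The pattern CCCNNGGG of early B cell factor was in 2 of 6 (Cd22 and Spib) and in 11.8%. The E-box CAGGTG, bound by E2A, was in 3 of 6 (Cd79a, Cd22 and Cr2) and in 17.2%. The loose NF-kB pattern GGGNNNNNCC was in 5 of 6 and in 45.8%. In Cd79a the E-box match begins 154 bases before the start, and the PU box match, on the opposite strand at 140 bases, overlaps the NF-kB pattern at 146. In Cd22 the early B cell factor pattern begins 48 bases before the start and the E-box 245. Pou2af1 holds only the NF-kB pattern, at 198 bases. A match shows that these letters are present in the window and is not a binding site. Only exact letters were searched, so a window without a match was not shown to lack a site for that factor.

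Next come the genes that carry the signal inward from the receptor; their difference from the receptor chains was not tested. In the B cell receptor signalling list, 20 of 30 genes were measured, 0 reached 2-fold in either direction, 16 were positive and the median log2 ratio was 0.25. Of the 20, 3 were under the floor in wild type alone and could only be positive. Another 1 was under it in transgenic colon alone and could only be negative. Under the lower floor, at the 20th percentile, 1 of 21 was at least 2-fold higher, against 1.87% of all measured genes. Without a floor 2 of 23 were, against 5.29%. Among ratios that are not bounds, the largest was that of Ptprc (CD45), the phosphatase that keeps Src-family kinases ready in all leukocytes, which read 156 and 272, a log2 ratio of 0.80. Syk, the kinase that docks on the phosphorylated CD79 chains, read 60.7 and 92.3 (log2 ratio 0.61). Btk, the kinase that activates phospholipase C, read 7.74 and 27.3, at least 1.38-fold higher. Nfatc1, a calcium-activated factor downstream, had 0.40 and its other probe set −0.22. The adaptor gene Blnk, chosen after its values were seen, read 356 and 459. Many of these genes are also expressed in other blood cells or in epithelium.

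B cell transcription factors beyond the members gave no ratio of 2-fold. Of 19 genes 12 were measured, 0 reached 2-fold, and the median log2 ratio was 0.25. Irf4 was at least 1.33-fold higher, Irf8 had a log2 ratio of 0.39 (its other probe set −0.31), Mef2c 0.34 and Bcl11a −0.31. Ebf1, which works beside Pax5 in early B cells, read 19.4 and 18.9 on its brightest probe set, under the floor on both arrays, while another probe set passed the floor with a log2 ratio of 0.15. The brightest probe sets of Ikzf1, Lef1, Pou2f2 and Rel were also under the floor on both arrays.

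Other surface and B cell genes were the third of these lists. Of 30 genes 12 were measured, 2 passed 2-fold upwards, 11 were positive and the median log2 ratio was 0.57. With the lower floor, at the 20th percentile, 6 of 21 passed, and without a floor 7 of 22. With a floor at the 60th percentile 1 of 3 passed, and 1 of 9 with multi-transcript probe sets left out. In that order, the shares of all measured genes that passed were 1.87%, 5.29%, 0.485% and 0.841%. Ly6d, a surface marker of early lymphoid and B cells, read 19.8 and 47.9, 2.41-fold higher, with the wild-type value just above the floor. Cd74, the invariant chain of MHC class II, read 657 and 1414, 2.15-fold higher. Tnfrsf13b (TACI), a receptor for the B cell survival factors BAFF and APRIL, read 17.1 and 38.9, at least 1.96-fold higher. Ly86, which pairs with the receptor-like CD180 on B cells, had a log2 ratio of 0.62. Tnfrsf13c, the BAFF receptor, and the Fc receptor-like gene Fcrl1, both chosen after their values were seen, had bounds of at least 1.45-fold and at least 1.49-fold. Under the floor on both arrays were 10 genes, among them Cxcr5, Fcer2a, Cd40 and Vpreb3.

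Immunoglobulin genes supply the antigen-binding part of the receptor. Of 15 genes 5 were measured, all 5 were positive and the median log2 ratio was 0.82. Of the 5, 2 reached 2-fold (Ighm and Iglv1), against 0.767% of all measured genes. Ighm, the IgM heavy chain that CD79A and CD79B hold in the membrane, read 62.6 and 570 on its brightest probe set, 9.11-fold higher, with log2 ratios from 0.23 to 4.29 on its 6 other probe sets above the floor. The brightest probe sets of Ighm and of the light chain gene Iglv1 (66.2 and 490) can bind several transcripts. Without such probe sets 0 of 3 measured immunoglobulin genes reached 2-fold, against 0.841% of all measured genes. Iglv1 had no other measured probe set, so it was not among the 3. Igha, the IgA heavy chain of gut plasma cells, read 3821 and 4476, a log2 ratio of 0.23 near the top of the intensity scale; it was chosen after its values were seen. Ighg3, under the floor in wild type alone, could only be positive and was at least 1.19-fold higher. Igk read 172 and 304, with its other probe set at a log2 ratio of −0.55.

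Plasma cell genes gave no ratio of 2-fold. Of 13 genes 9 were measured, 0 reached 2-fold and the median log2 ratio was 0.35. Jchain, which links IgA and IgM chains, read 2529 and 2703 and the secretory factor gene Xbp1 1056 and 1110, both chosen after their values were seen. Derl3, Fkbp11 and Creld2, genes of protein folding and export, had log2 ratios of 0.57, 0.55 and 0.54, and Irf4 was at least 1.33-fold higher. A difference between the plasma cell genes and the members was not tested.

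Genes of the structures that house gut B cells were mostly positive and mostly below 2-fold. In the lymphoid follicle and lymphotoxin list 13 of 20 genes were measured, 12 were positive, 1 reached 2-fold and the median log2 ratio was 0.44. Of the 13, 1 was under the floor in wild type alone and could only be positive. The gene that reached 2-fold was Ltb, the lymphotoxin chain that lymphocytes use to build follicles, at 21.3 and 45.1 (2.12-fold). Cxcl13, the chemokine that draws B cells into follicles, read 122 and 224, a log2 ratio of 0.87 with 0.55 on its other probe set. Glycam1, a selectin ligand of lymphoid vessels, had 0.85 and the adhesion gene Icam1 0.78. In the germinal centre list, 6 of 12 genes were measured, 0 reached 2-fold and the median was 0.37. Mki67, a gene of dividing cells in general, had 0.62, Basp1 0.61, Fas 0.42 and Stmn1 0.31, with the other Stmn1 probe set at −0.56.

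Since Spib also marks M cells and plasmacytoid dendritic cells, their other genes are given beside it. Of the M cell and follicle epithelium list without Spib, 10 genes were measured, 0 were 2-fold higher and the median log2 ratio was 0.21. Ccl20, the chemokine of epithelium over follicles, was at least 1.66-fold higher (19.0 to 32.9). Tnfaip2 had a log2 ratio of 0.42. Gp2, an M cell receptor also made in quantity by pancreatic acinar cells, was at least 30.3-fold lower, at 599 and 15.6. Of the plasmacytoid dendritic cell list without Cd79b and Spib, 6 genes were measured and 1, Ly6d, reached 2-fold, from a wild-type value just above the floor. Irf7 had a log2 ratio of 0.52, and Tlr7 and Tlr9 were under the floor on both arrays. The part of either cell type in the Spib value was not tested.

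Genes shared by all leukocytes also read higher in transgenic colon, and their difference from the members was not tested. In the pan leukocyte list 11 of 13 genes were measured, all 11 were positive, 3 passed 2-fold upwards, and the median log2 ratio was 0.88. Arhgdib, a regulator of small GTPases in blood cells, read 67.4 and 195 (2.89-fold), the actin-binding coronin gene Coro1a 89.1 and 235 (2.64-fold), and the GTPase gene Rac2 35.5 and 79.7 (2.25-fold). Cd53 had a log2 ratio of 0.98. Summed over the 12 list genes on the array, intensity was 983 in wild type and 1865 in transgenic colon; over the 9 members it was 228 and 494. When each ratio was taken relative to the leukocyte median, a choice made after the data were seen, Cd79a alone remained at 2-fold, with a log2 ratio of 1.04. Cd22 then had 0.56, and Pou2af1 and Ms4a1 0.26 each. The part of generally higher leukocyte RNA in the member values was not tested.

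Other leukocyte lists did not move as one at the floor used. T cell genes, of which 8 of 22 were measured, had a median log2 ratio of 0.06 with 0 at 2-fold. Of the 8, 5 were under the floor in wild type, so their ratios are bounds. With a floor at the 20th percentile 4 of 15 reached 2-fold, against 1.87% of all measured genes. Without a floor 7 of 15 did, against 5.29%, and the T cell median was 0.83. Cd3d was at least 1.38-fold higher (14.99 to 27.3) and Cd3g at least 1.16-fold, while Cd28 had −0.38 and Zap70 −0.34. The summed T cell list intensity was 216 and 269. Macrophage and dendritic cell genes (15 of 20 measured) had a median of 0.27, with Itgax, an integrin of dendritic cells, at least 2.13-fold higher (14.2 to 42.1), Mpeg1 at 0.47, C1qc at 0.44 and Adgre1 at −0.43. Their summed intensity was 2045 and 2379. Mast cell genes (10 of 13 measured) had a median of 1.31 and 5 were at least 2-fold higher, against 0.767% of all measured genes. Their summed intensity was 310 and 3426. Of the 10 mast cell genes, 5 were under the floor in wild type alone, so their ratios are bounds. With only genes above the floor on both arrays, 1 of 5 reached 2-fold, against 0.631% of all genes so kept, and the median was 0.45. Over the 10 genes the largest ratios were those of Mcpt2, Mcpt1 and Fcer1a, at least 74.3-fold, at least 65.5-fold and at least 6.79-fold, and of Cpa3, at 4.95-fold. How far these cell types account for the member values was not tested.

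**Figure D4:**
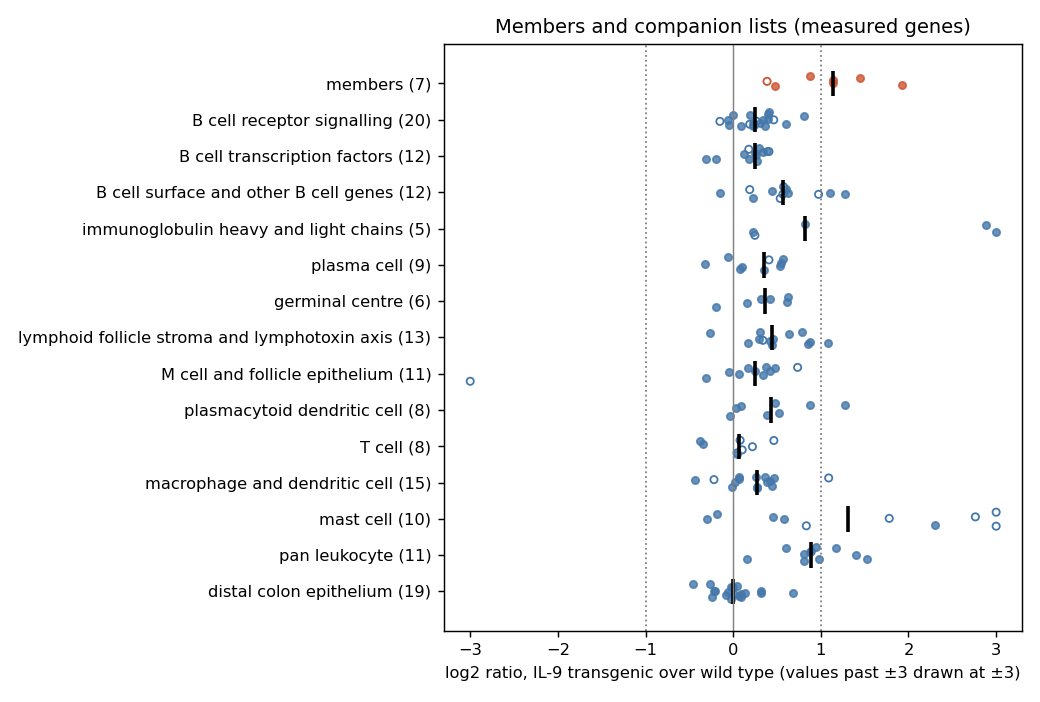
Log2 ratio (IL-9 transgenic over wild type) of every measured gene of the members (top) and of 14 companion lists, with the number of measured genes in brackets; open symbols are genes at the floor in 1 pool, whose ratio is a bound, and black bars are medians. The member median of 1.14 lies beside the mast cell (1.31) and pan leukocyte (0.88) medians, with B cell receptor signalling and B cell transcription factor medians at 0.25. Of the 10 mast cell ratios, 5 are bounds.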

How the data were processed

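Total RNA of a distal colon piece was pooled from 4 mice per genotype, labelled and hybridised to 1 Affymetrix array per pool, per the labels and the design text. The authors deposited 1 intensity per probe set and array; MAS5 is the tool that the submitters' processing notes name, and its version and the genome build of the annotation are not given in the sources used here. Means after leaving out 2% at each end were 100.04 on both arrays, so no further scaling was applied. MAS5 subtracts background and mismatch signal, so ratios of low values are unstable, hence the floor.

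Of 22690 probe sets 64 were controls; of the rest 20380 had 1 gene symbol, 691 several and 1555 none. Identifiers of 20351 matched the RefSeq table (GRCm38.p6), used for names only, and 0 symbols changed. The brightest single-symbol probe set stood for a gene, and 8346 of 12393 genes were measured. Log2 ratios are transgenic over wild type. All members are reported, and in the other lists up to 4 measured genes with the largest ratios in size, except those said to be chosen after their values were seen, genes under the floor, and genes given to check the tissue. Alternatives were median scaling, quantile normalization, loess (span 0.3), floors at the 20th and 60th percentiles, no floor with a pseudocount of 0.735, the mean of probe sets, leaving out probe sets that can bind several transcripts, and a 1.5-fold threshold. The steps were tested on simulated data. The planted effects were larger than any member ratio and lay in genes brighter in wild type than any member. Recovery of smaller effects in dim genes was not tested. Protein sequences were not used here. The number of arrays limits the precision. Python 3.11.15, pandas 2.3.3 and statsmodels 0.14.6 were used. The members and lists were chosen with earlier results of these data known.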

Additional observations from a re-analysis of the deposited data

How the results depend on the processing

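The count of 4 members at least 2-fold higher was 4 under median scaling, quantile normalization, loess and with multi-transcript probe sets left out. It was also 4 when only genes above the floor on both arrays were kept, a choice added to those planned. In that order, the shares of all measured genes that passed were 0.731%, 0.767%, 0.731%, 0.841% and 0.631%. The count was 5 of 8 measured members with the 20th-percentile floor, where 1.87% of all measured genes passed. Without a floor it was 5 of 9, where 5.29% of genes passed. The count was also 5 at a 1.5-fold threshold (341 of 8346 genes, 4.09%, passed that threshold). With the mean of probe sets it was 3, where 0.73% of genes passed. With a floor at the 60th percentile the counts of member genes and of member probe sets were each 1 and the median log2 ratio was 0.49, since the higher floor turns most ratios into bounds. Relative to the pan leukocyte median, a choice made after the data were seen, both counts were 1 and the median was 0.26. No member past 2-fold changed sign under any of these choices. Over all genes, the number at least 2-fold higher rose from 64 of 8346 to 202 of 10809 with the 20th-percentile floor. Without a floor it was 655 of 12393. It fell to 29 of 5975 (0.485%) at the 60th percentile and to 10 of 8346 (0.12%) relative to the pan leukocyte median. Among the companion lists, 25 counts or medians moved up and 31 down past the limit used (1.5 times for a count, 0.28 for a log2 ratio), and 238 did not. No paired analysis was possible because each group has 1 array, and leaving out a replicate was not possible for the same reason. Low signal and the single array per group both limit these values: of 11 member probe sets, 3 were under the floor on both arrays and 2 in wild type alone.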
